A study of Mus musculus with 16 samples.

Results

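This report describes the response of the mouse heart to bacterial endotoxin in the absence of the adenosine 2A receptor (A2AR). Ventricular myocardium was taken from male CD1 mice aged 14 weeks, 24 h after a single intraperitoneal injection, and each heart's RNA was read on an Affymetrix expression array of its own. The comparison rests on 8 arrays chosen by their titles: 4 arrays of A2AR knockout mice given lipopolysaccharide (LPS) of E. coli at 20 mg/kg, and 4 arrays of A2AR knockout mice given an equal volume of sterile saline. The other 8 of the 16 arrays came from wild-type littermates, 4 given LPS and 4 given saline, and entered the same model. Both knockout groups lack the receptor, so the comparison shows what LPS does without it and not what the receptor does. Knockouts and littermates were bred in 1 series from an established line, and the receptor was missing in every cell type, not in the heart alone. How much transcript of the receptor itself each array read is not reported here, and genotypes are taken from the labels, which cite PCR typing of tail tissue. Nothing in the labels ties arrays to litters or days. Standard errors and p-values rest on the spread within all 4 groups of the 16 arrays, wild-type hearts included.

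LPS is the endotoxin of Gram-negative bacteria. It is bound by CD14 and MD-2, signals through Toll-like receptor 4 to NF-kB and to interferon regulatory factors, and sets off waves of cytokines, interferons and acute-phase proteins that reach the heart muscle as well as its vessels and resident leukocytes. Extracellular adenosine, formed from ATP that injured cells release, acts through A2AR to raise cAMP and is known to restrain leukocytes during inflammation. In the heart, endotoxaemia is known for depressed contraction and for altered use of fuels.

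The values are log2 probe set levels, and 18193 genes were tested, each by whichever of its probe sets had the highest mean level. In what follows a change is LPS minus saline in knockout hearts on the log2 scale with its limma standard error, a level is a log2 level, and a gene is said to rise or fall only where its p, adjusted over all genes, was under 0.05. The standard error is not the spread of the knockout levels alone. For Dbp the SD was 0.17 in each knockout group, but 1.01 and 1.02 in wild-type LPS and saline hearts. For Asb15 the SD was 1.93 in knockout LPS hearts and 0.88 in wild-type LPS hearts. After LPS, 2075 genes rose and 2669 fell, which is 26.1% of the genes tested (11.4% higher and 14.7% lower). The median change of all genes was -0.02, and these figures are the background for the gene groups below. Calls were more frequent at higher levels: when only genes above the median mean level were tested, 1799 rose and 2235 fell. For lists of genes with high levels the background share is thus above 26.1%. Most calls were small: 3474 of them were under 2-fold. At 4-fold or more, 206 genes rose and 97 fell, and at 16-fold or more 44 rose and 3 fell. For 28.5% of all genes the LPS and saline levels had no overlap. Among called genes whose 8 levels are given below, array 1 to 4 in each group, the groups overlapped for Nos2 and Pln alone.

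The 4 knockout LPS hearts did not respond to the same extent. The wild-type arrays, which share no sample with them, gave 549 genes that LPS raised and 482 that it lowered by 2-fold or more. Over the raised genes, the median difference from the knockout saline mean was 1.83, 1.79, 1.73 and 1.43 in knockout LPS arrays 1 to 4, and between -0.02 and 0.08 in the knockout saline arrays. Over the lowered genes it was -1.44, -1.69, -1.40 and -1.14 in the same LPS arrays. Array 4 thus held the weakest response in both directions, and array 2 the largest falls. Of the 4130 called knockout genes whose LPS and saline arrays did not overlap, array 2 lay farthest from saline for 49.7% and array 4 lay nearest to it for 55.6%. Array 2 also stood apart in a measure of RNA integrity, the 3′ minus 5′ difference of the control probe sets for Gapdh, which was 0.90 there, 0.16, 0.07 and 0.12 in the other knockout LPS arrays, and 0.52, 0.04, 0.08 and 0.22 in the knockout saline arrays. Without LPS array 2, 1985 genes rose and 2249 fell. With the Gapdh difference as a covariate, 2296 rose and 2919 fell.

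**Figure D1:**
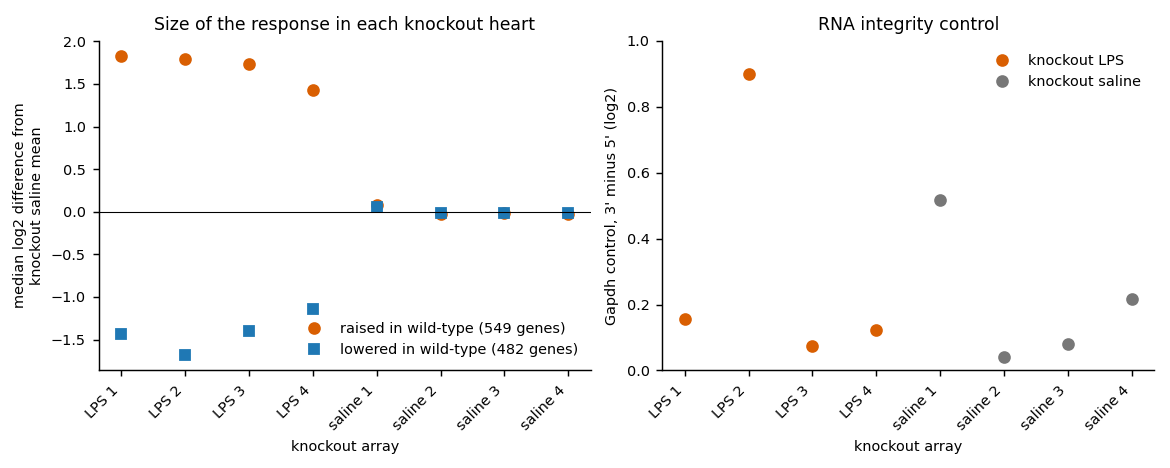
The left panel plots, for each knockout array, the median log2 difference from the knockout saline mean over the 549 genes raised and the 482 genes lowered at least 2-fold by LPS in wild-type hearts, and the right panel the 3′ minus 5′ log2 difference of the Gapdh control probe sets. LPS array 4 has the smallest differences (1.43 and -1.14), and LPS array 2 has the highest 3′ minus 5′ value (0.90).

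Heart muscle markers were near the top of the scale in both knockout groups, and 4 of 8 fell and none rose, or 2 fell when the 8 knockout arrays were fitted alone. Their list mean was 13.43 to 13.79 in LPS arrays and 13.93 to 14.01 in saline arrays. Myl2, the ventricular myosin light chain, had a mean level of 14.35 ± 0.02 in knockout LPS hearts and 14.45 ± 0.03 in knockout saline hearts (SD, n = 4 each), and was not called (-0.10 ± 0.04). Neutrophil markers moved with LPS, 6 of 9 rising, and the mean level of that list was 5.91 to 6.24 in LPS arrays and 3.99 to 4.13 in saline arrays. The list mean of T and NK cell markers was 4.78 to 5.18 after LPS and 4.70 to 4.83 after saline. Skeletal muscle markers had list means of 5.64 to 5.84 after LPS and 5.88 to 5.89 after saline. In wild-type saline arrays 1 to 4 these means were 7.77, 6.07, 5.99 and 9.18, and those arrays entered the same model. Of 8 macrophage and monocyte markers 1 rose and 3 fell, and their list mean was 6.33 to 7.29 in LPS arrays and 7.13 to 7.25 in saline arrays. The array platform gives no marker a level of 0, so absence cannot be read from it. The part that changing cell numbers had in any result was not tested, and in bulk tissue fewer cells of a type and less RNA per cell cannot be told apart.

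Genes known to be driven by interferons and genes known to be driven by NF-kB are among those with large rises, and the DNA before the start is shown for 5 of them to let these letters be seen. The letters searched were GAAANNGAAA, the core of the interferon-stimulated response element (ISRE) bound by IRF and STAT complexes, TTCNNNGAA, the site of STAT dimers (GAS), and GGGANNTTCC, a form of the kappaB site, each on both strands of the 250 bases before the start given by RefSeq on GRCm38.p6. Igtp and Irgm2 (GTPases that act on vacuoles holding microbes) and Ifit1 (which binds foreign RNA) hold the first, Igtp and Irgm2 the second as well, and the neutrophil attractants Cxcl1 and Cxcl2 the third. The last 150 bases before each start are printed 5′ to 3′ on the gene's strand with matches in capitals, at chr11:58199406-58199555 (+) for Igtp, chr11:58214827-58214976 (+) for Irgm2, chr19:34640739-34640888 (+) for Ifit1, chr5:90891095-90891244 (+) for Cxcl1 and chr5:90903749-90903898 (+) for Cxcl2.
Igtp: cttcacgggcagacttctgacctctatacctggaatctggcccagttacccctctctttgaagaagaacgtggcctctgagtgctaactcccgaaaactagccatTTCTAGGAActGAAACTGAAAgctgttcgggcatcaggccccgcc
Irgm2: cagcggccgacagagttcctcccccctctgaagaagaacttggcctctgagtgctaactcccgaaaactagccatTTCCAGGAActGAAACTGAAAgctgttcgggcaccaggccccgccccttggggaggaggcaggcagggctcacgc
Ifit1: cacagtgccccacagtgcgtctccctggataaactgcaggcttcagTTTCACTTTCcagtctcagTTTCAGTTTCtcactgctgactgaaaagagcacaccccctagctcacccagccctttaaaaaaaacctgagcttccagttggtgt
Cxcl1: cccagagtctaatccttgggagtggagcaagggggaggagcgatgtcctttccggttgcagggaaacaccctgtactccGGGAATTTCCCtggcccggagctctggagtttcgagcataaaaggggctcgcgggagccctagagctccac
Cxcl2: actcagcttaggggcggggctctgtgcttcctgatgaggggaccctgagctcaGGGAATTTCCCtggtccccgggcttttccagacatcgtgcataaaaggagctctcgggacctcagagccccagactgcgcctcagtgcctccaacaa
In Igtp and Irgm2 the GAS and ISRE letters follow each other with 2 bases between them, and in Ifit1 the ISRE letters occur at 2 places. In Cxcl1 and Cxcl2 the kappaB letters match on both strands, offset by 1 base, which makes 1 run of capitals. Igtp rose by 5.85 ± 0.29, Irgm2 by 5.23 ± 0.39, Ifit1 by 6.06 ± 0.46, Cxcl1 by 4.63 ± 0.34 and Cxcl2 by 5.13 ± 0.67.

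Over all 14452 tested genes with a RefSeq promoter, 3.13% hold the ISRE letters, 1.41% the kappaB letters and 7.42% the GAS letters. Among genes that rose 16-fold or more in knockout hearts, 10 of 32 (31.2%) hold ISRE letters and 4 (12.5%) kappaB letters. The share with ISRE letters was 11.4% of 123 genes that rose 4-fold to under 16-fold, 3.65% of 1505 that rose less and 2.09% of 2058 that fell under 4-fold. It was 6.25% of the 80 genes that fell 4-fold or more. Thus ISRE letters were most frequent among the largest rises. The kappaB letters showed no such order below 16-fold: they were held by 1.63% of the genes that rose 4-fold to under 16-fold, 2.19% of those that rose less, 1.55% of those that fell under 4-fold and 2.5% of those that fell more, and by 0 of the 10 of the 12 largest rises that have a promoter entry. GAS letters were held by 12.5% of the genes that rose 16-fold or more, 18.7% at 4-fold to under 16-fold, 8.31% of those that rose less, 6.27% of those that fell under 4-fold and 10% of those that fell more. A match is a description of letters and not a bound site.

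The largest rise was that of Lcn2, whose product withholds iron from bacteria. Its level was 13.92, 13.89, 13.86 and 13.79 in knockout LPS hearts and 4.13, 3.92, 3.77 and 4.05 in knockout saline hearts. Saa3, an acute-phase apolipoprotein made outside the liver, had levels of 13.83, 13.73, 13.73 and 13.76 in knockout LPS hearts and 5.42, 4.78, 4.53 and 4.48 in knockout saline hearts. Serpina3n, an inhibitor of serine proteases, had levels of 13.34, 12.52, 13.22 and 13.40 in knockout LPS hearts and 6.42, 6.66, 6.37 and 6.16 in knockout saline hearts. In each of the 3 genes the lowest LPS array lay more than 5 log2 units above the highest saline array. For Lcn2 the adjusted p was 3.13e-15. Cd274, which encodes the ligand of the T cell inhibitory receptor PD-1, had levels of 10.87, 11.76, 10.13 and 9.65 in knockout LPS hearts and 5.28, 4.96, 5.18 and 4.94 in knockout saline hearts and rose by 5.51 ± 0.54. Its LPS levels spread over more than 2 log2 units, highest in array 2 and lowest in array 4. The levels of Irgm2 were 11.31, 11.23, 11.14 and 11.18 in knockout LPS hearts and 6.21, 5.95, 5.91 and 5.86 in knockout saline hearts, with far less spread. Cxcl5, a neutrophil attractant, was the most uneven of the 12 largest rises over LPS arrays, with levels of 9.62, 10.56, 9.37 and 5.65 in knockout LPS hearts and 3.03, 3.02, 2.99 and 2.97 in knockout saline hearts. LPS array 4 was thus far below the other LPS arrays, though above every saline array, and without it the rise of 5.80 ± 0.96 (adjusted p = 0.000256) became 6.85.

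The largest falls were of another kind. Car3, a carbonic anhydrase of fat and muscle, had levels of 5.14, 3.90, 3.16 and 2.91 in knockout LPS hearts and 9.39, 10.18, 10.20 and 9.29 in knockout saline hearts. Its lowest saline level was more than 4 log2 units above its highest LPS level. Colec11, a secreted lectin of the complement system, had levels of 4.32, 3.71, 5.99 and 5.51 in knockout LPS hearts and 9.27, 9.02, 8.79 and 9.25 in knockout saline hearts and fell by 4.20 ± 0.67. Aplnr, the receptor of the peptide apelin, which dilates vessels and strengthens contraction, had levels of 6.07, 5.54, 6.07 and 6.08 in knockout LPS hearts and 10.41, 9.82, 9.88 and 10.02 in knockout saline hearts. The 4 LPS values of Aplnr lay within 1 log2 unit of each other and more than 3 below every saline value, and it fell by 4.09 ± 0.36. C1qtnf9, an adiponectin-related hormone of heart and fat, fell by 3.83 ± 0.55, and the lipid transporter gene Abca8a by 3.63 ± 0.44. Car3, C1qtnf9 and Adipoq, which fell by 3.33 ± 0.40, are also genes of fat, and the list mean of adipocyte markers was 3.71 to 4.01 in LPS arrays and 4.67 to 5.25 in saline arrays. Adipoq is itself 1 of the 4 measured markers, of which 2 fell and 2 were not called (median -0.38). The part of fat cells in these falls was not tested. Penk, the precursor of enkephalins, had levels of 4.83, 4.70, 4.50 and 4.96 in knockout LPS hearts and 8.06, 8.09, 7.82 and 7.65 in knockout saline hearts and fell by 3.16 ± 0.22. Col14a1, a collagen that associates with fibrils, fell by 3.07 ± 0.32. Asb15, a muscle gene with ankyrin repeats and a SOCS box, had levels of 7.13, 4.99, 8.42 and 9.48 in knockout LPS hearts and 10.34, 10.79, 10.46 and 10.55 in knockout saline hearts. Its LPS arrays spread over more than 4 log2 units, with array 2 lowest and array 4 highest, the order of the median falls given above. Without array 2 its fall of 3.03 ± 0.64 (adjusted p = 0.00208) became 2.19. Cenpf (a centromere protein) had the same order of LPS arrays, with levels of 5.25, 4.17, 6.53 and 7.33 in knockout LPS hearts and 8.61, 8.60, 9.35 and 8.86 in knockout saline hearts, and fell by 3.03 ± 0.50.

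**Figure D2:**
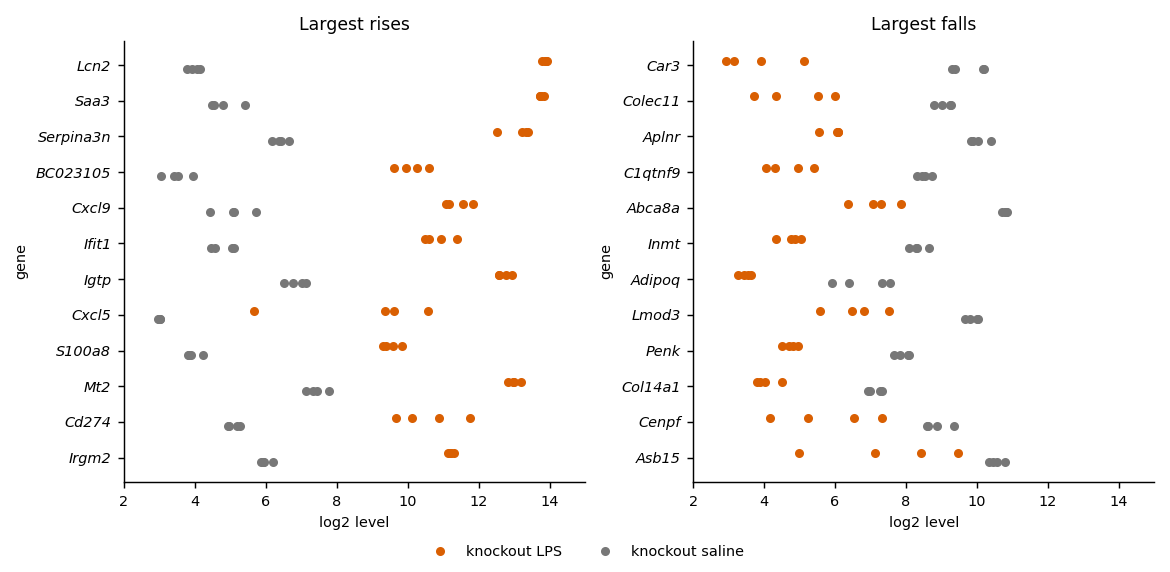
Log2 level of the 12 genes with the largest rises and the 12 with the largest falls in knockout hearts after LPS, among genes called and with no overlap between groups. Each point is 1 array, knockout LPS in orange and knockout saline in grey, with genes ordered by change: Lcn2 (9.90 ± 0.21) leads the rises and Car3 (-5.99 ± 0.64) the falls.

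Of 11 interferon-induced GTPases 9 rose, with a median change of 4.29, and the other 2 were not called. Gbp6, which attacks the walls of microbe-holding vacuoles, had levels of 13.33, 13.35, 13.13 and 13.22 in knockout LPS hearts and 8.55, 8.46, 8.34 and 8.30 in knockout saline hearts and rose by 4.85 ± 0.23. The regulator Irgm1 rose by 4.51 ± 0.33 and Iigp1 by 4.73 ± 0.33. All 5 measured enzymes of ISG15 conjugation, the attachment of a ubiquitin-like protein, rose (median 1.84). Usp18, which removes ISG15 and silences the interferon receptor, had levels of 8.88, 9.18, 8.51 and 7.90 in knockout LPS hearts and 4.31, 4.12, 4.09 and 3.91 in knockout saline hearts and rose by 4.51 ± 0.37. Of 12 interferon regulatory factors and receptors 5 rose. Irf7, which amplifies type I interferon, had levels of 9.74, 9.82, 9.23 and 9.65 in knockout LPS hearts and 5.26, 5.08, 4.87 and 5.44 in knockout saline hearts and rose by 4.45 ± 0.22. Irf1 and Irf9 rose by 2.297 ± 0.33 and 2.27 ± 0.19.

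Immediate early genes, known to answer signals within minutes, were raised for 13 of 28 (median 0.60) at 24 h, the only time measured. Junb, an AP-1 subunit, had levels of 8.86, 9.20, 9.02 and 8.44 in knockout LPS hearts and 6.27, 6.06, 6.58 and 6.22 in knockout saline hearts and rose by 2.60 ± 0.38, and Myc, which drives ribosome production, rose by 2.52 ± 0.45. Genes known to respond to glucocorticoids, the adrenal hormones of stress, rose for 11 of 18 (median 1.41). Lcn2 and Mt2 belong to that list and to others. Fkbp5, which tempers the glucocorticoid receptor, had levels of 10.44, 10.18, 10.31 and 10.55 in knockout LPS hearts and 6.61, 6.34, 6.37 and 6.96 in knockout saline hearts and rose by 3.80 ± 0.17. Angptl4, an inhibitor of lipoprotein lipase, rose by 4.51 ± 0.64. The 1 member that fell was Nr3c1, the receptor itself, with levels of 8.62, 8.29, 8.62 and 8.64 in knockout LPS hearts and 9.79, 9.84, 9.77 and 9.74 in knockout saline hearts and a fall of 1.24 ± 0.10. Genes of inflammatory cell death rose for 8 of 13 and fell for 1, which was not called without LPS array 2. Casp4 (caspase 11, which senses LPS inside the cell) had levels of 8.59, 8.69, 8.59 and 8.12 in knockout LPS hearts and 6.07, 5.55, 5.31 and 5.30 in knockout saline hearts and rose by 2.94 ± 0.27, and Mlkl, which pierces membranes in necroptosis, rose by 2.72 ± 0.26.

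In the IL-6 family 3 of 10 genes rose and 2 fell. Il6, the ligand that drives the acute phase, had levels of 8.84, 9.44, 8.11 and 5.63 in knockout LPS hearts and 2.98, 3.17, 3.11 and 3.36 in knockout saline hearts and rose by 4.85 ± 0.93. All of its saline values lay below 4.64, the median level of all probe sets, and LPS array 4 lay far below the other LPS arrays. Osmr, the receptor subunit for oncostatin M, rose by 2.78 ± 0.23, whereas Lifr, the subunit for leukaemia inhibitory factor, fell by 1.35 ± 0.18. Il6st, the shared signalling subunit gp130, had a change of -0.13 ± 0.13 and was not called, but 1 of its 4 probe sets was called higher (0.79). Downstream, Socs3, which shuts off IL-6 receptor signalling, had levels of 10.50, 10.11, 10.48 and 9.61 in knockout LPS hearts and 5.96, 5.88, 6.02 and 5.79 in knockout saline hearts and rose by 4.26 ± 0.41. Stat3, the factor it restrains, rose by 1.42 ± 0.13 and Stat2, of the type I interferon response, by 2.76 ± 0.23, while Stat5b fell by 0.71 ± 0.17. Of the 22 genes for JAKs, STATs and their inhibitors, 8 rose and 3 fell (median 0.13), and 1 fell without saline array 1.

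In the IL-1 family 7 of 13 genes rose and 1 fell. The alarmin Il33 had levels of 9.40, 9.12, 9.23 and 7.92 in knockout LPS hearts and 7.04, 6.45, 6.37 and 5.92 in knockout saline hearts and rose by 2.47 ± 0.37. Il18bp, which neutralises IL-18, rose by 2.44 ± 0.23, and Il1r2, a decoy receptor for IL-1, by 1.69 ± 0.16. Il1b itself was not called (0.41 ± 0.17). Of 16 TNF ligands and receptors, 7 rose and the other 9 were not called. The largest of these rises were those of the death receptor Fas (1.98 ± 0.20) and the TNF receptor Tnfrsf1a (1.60 ± 0.12), and Tnf itself rose by 0.47 ± 0.10. The NF-kB pathway moved nearly as a whole, 19 of 21 genes rising (median 1.45), or 17 without LPS array 2. These included Irak3, a brake on Toll-like receptor signalling (2.57 ± 0.16), the adaptor Myd88 (2.08 ± 0.23) and the subunit Relb (2.10 ± 0.18).

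Of 17 CXC-type and CX3C-type genes 10 rose and 3 fell. Cxcl13, an attractant of B cells, had levels of 9.85, 8.46, 10.69 and 9.47 in knockout LPS hearts and 7.30, 6.64, 5.35 and 5.86 in knockout saline hearts and rose by 3.33 ± 0.57. Cxcl12, which holds stem cells and lymphocytes in tissue, had levels of 8.48, 8.06, 9.09 and 8.42 in knockout LPS hearts and 11.05, 10.58, 10.59 and 10.54 in knockout saline hearts and fell by 2.17 ± 0.30, though 1 of its 3 probe sets was called higher (0.85). Its receptor Cxcr4 fell by 1.58 ± 0.20. Of 20 CC-type genes 7 rose and 2 fell. The monocyte attractants Ccl2 and Ccl7 rose by 3.24 ± 0.28 and 2.88 ± 0.30, and Ackr1, a receptor that carries chemokines across venules, by 1.72 ± 0.24. The eosinophil attractant Ccl11 fell by 1.12 ± 0.22.

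Of 26 receptors by which phagocytes sense microbes 13 rose and 3 fell. Fpr2, which senses formylated bacterial peptides, had levels of 9.28, 8.56, 9.14 and 8.86 in knockout LPS hearts and 4.26, 4.12, 4.36 and 4.35 in knockout saline hearts and rose by 4.69 ± 0.15. Neutrophils carry Fpr2, and 6 of 9 neutrophil markers rose as given above. Their list mean was highest in LPS array 2 (6.24), where the LPS level of Fpr2 was lowest (8.56). The part of neutrophils in the rise of Fpr2 was not tested. The scavenger receptor Marco (2.67 ± 0.39), the LPS co-receptor Cd14 (1.79 ± 0.14) and the RNA sensor Ifih1 (3.17 ± 0.29) rose. Tlr4, the LPS receptor itself, had levels of 7.04, 5.58, 7.18 and 7.06 in knockout LPS hearts and 6.35, 6.48, 6.599 and 6.34 in knockout saline hearts and was not called (0.28 ± 0.27). Its LPS array 2 lay below every saline array and the other LPS arrays above them, and without array 2 it was called higher (0.66, adjusted p = 0.00702). Among its 4 probe sets 1 was called higher. The mannose receptor Mrc1, a marker of resident macrophages, fell by 0.98 ± 0.21, as did the growth factor receptor Csf1r (1.35 ± 0.27), on which macrophages depend. Adgre1, the macrophage marker F4/80, was not called (-0.20 ± 0.44), and 1 of the 8 macrophage and monocyte markers rose. The list mean of these markers overlapped between LPS and saline arrays, and the part of macrophage numbers was not tested.

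Of 13 genes that form, clear or sense adenosine 5 rose and 3 fell. Xdh, which turns hypoxanthine and xanthine to uric acid, had levels of 11.05, 10.70, 10.47 and 11.11 in knockout LPS hearts and 8.60, 8.34, 7.996 and 8.62 in knockout saline hearts and rose by 2.45 ± 0.20. The deaminases Ampd3 (of AMP) and Ada (of adenosine) rose by 2.24 ± 0.39 and 1.52 ± 0.25, and Pnp, which splits inosine, by 1.24 ± 0.14. Entpd1, the ectoenzyme CD39 that degrades ATP, rose by 1.02 ± 0.26. Nt5e, the ectoenzyme CD73 that forms adenosine, had levels of 8.03, 8.76, 7.27 and 7.52 in knockout LPS hearts and 7.30, 7.31, 7.27 and 7.40 in knockout saline hearts and was not called (0.58 ± 0.28): array 2 was high and array 3 at the level of saline. The adenosine transporter Slc29a1 fell by 1.01 ± 0.33, a call that was lost without LPS array 2 (change -0.67) and without saline array 2, 3 or 4 (-0.99, -0.92 and -1.05). Adora3, another adenosine receptor, was not called (0.04 ± 0.10).

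The missing receptor acts through cAMP, which phosphodiesterases remove. Of 15 phosphodiesterase genes, 7 fell and 1 rose (median -0.38), with 5 falling without LPS array 2. The 1 that rose was Pde4b, at 10.52, 10.36, 10.54 and 9.08 in knockout LPS hearts and 7.60, 7.46, 7.64 and 7.29 in knockout saline hearts, though 1 of its 6 probe sets was called lower (-0.34). Pde7a, which also degrades cAMP, had levels of 6.80, 6.94, 6.89 and 7.59 in knockout LPS hearts and 8.55, 8.63, 8.58 and 8.46 in knockout saline hearts and fell by 1.499 ± 0.21. Pde4d, another enzyme of cAMP in heart muscle, fell by 1.09 ± 0.17. Both subunits of the nitric oxide receptor, which makes cGMP, fell: Gucy1a1 had levels of 7.41, 7.02, 7.90 and 8.46 in knockout LPS hearts and 9.35, 9.17, 9.20 and 9.05 in knockout saline hearts and fell by 1.499 ± 0.32, and Gucy1b1 by 1.37 ± 0.31. Smooth muscle holds this receptor, and the list mean of smooth muscle and pericyte markers was 8.24 to 8.58 in LPS arrays and 8.99 to 9.45 in saline arrays, with 5 of 7 falling. Its part was not tested. Gch1, which starts the synthesis of the cofactor of nitric oxide synthases, rose by 1.47 ± 0.18. The inducible synthase Nos2 had levels of 4.94, 4.73, 5.02 and 4.48 in knockout LPS hearts and 4.27, 4.59, 4.26 and 4.23 in knockout saline hearts and rose by 0.46 ± 0.13, and LPS array 4 lay below 1 saline array. This call was lost without LPS array 2 and saline array 1 together. Of 17 genes of nitric oxide and arginine metabolism 5 rose and 5 fell.

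Of 21 genes for vasoactive peptides, their enzymes and receptors 5 fell and 2 rose, or 5 rose without LPS array 4. Beside Aplnr, the gene of its ligand, Apln, fell by 0.76 ± 0.15. Npr3, which clears natriuretic peptides, had levels of 6.20, 4.61, 6.74 and 6.05 in knockout LPS hearts and 8.27, 7.90, 7.97 and 7.82 in knockout saline hearts and fell by 2.09 ± 0.43. The angiotensin receptor Agtr1a fell by 0.85 ± 0.23, and Agt, the precursor of its ligand, rose by 0.76 ± 0.14. Nppa and Nppb, the natriuretic peptides of atrium and ventricle, had changes of -0.20 ± 0.09 and 0.47 ± 0.42 and were not called. The levels of Nppb were 13.41, 12.48, 12.77 and 10.49 in knockout LPS hearts and 11.92, 11.65, 11.89 and 11.81 in knockout saline hearts: LPS array 4 lay below every saline array and the other LPS arrays above them. Without array 4 Nppb was called higher (1.07, adjusted p = 0.0026). The groups did not overlap for Npr3, and LPS array 2 was the lowest. Prostaglandin genes fell for 5 of 19 and rose for 1, and 3 fell without LPS array 4. The inducible cyclooxygenase Ptgs2 had levels of 5.52, 4.69, 5.75 and 4.39 in knockout LPS hearts and 3.93, 3.91, 3.77 and 3.95 in knockout saline hearts and rose by 1.20 ± 0.25. The prostaglandin F receptor Ptgfr had levels of 3.80, 3.87, 4.11 and 4.09 in knockout LPS hearts and 6.44, 6.76, 6.98 and 6.19 in knockout saline hearts and fell by 2.62 ± 0.28. Both genes separated the groups on every array. Of the angiogenic factors and receptors 3 of 20 rose and 6 fell, and 5 rose without LPS array 4. Pgf, the placental growth factor, had levels of 10.13, 11.01, 9.57 and 8.63 in knockout LPS hearts and 6.68, 6.76, 6.74 and 6.11 in knockout saline hearts and rose by 3.27 ± 0.43. Vegfa, the chief factor of capillary growth, had levels of 7.61, 7.62, 7.48 and 7.72 in knockout LPS hearts and 9.07, 9.004, 9.12 and 9.10 in knockout saline hearts and fell by 1.47 ± 0.21, and its co-receptor Nrp1 by 1.46 ± 0.28.

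Of 15 genes of endothelial junctions and adhesion 4 rose and 5 fell, or 3 fell without LPS array 1 or without saline array 1. The adhesion molecules Selp and Sele, which capture leukocytes, rose by 4.09 ± 0.38 and 1.71 ± 0.42. Jam2, of the junctions between endothelial cells, had levels of 7.84, 7.61, 7.85 and 8.03 in knockout LPS hearts and 9.65, 9.45, 9.45 and 9.48 in knockout saline hearts and fell by 1.68 ± 0.18, and its partner Jam3 by 1.09 ± 0.12. Cdh5, the cadherin of these junctions, was not called (-0.43 ± 0.21), but 1 of its 2 probe sets was called lower (-0.51), and so was the gene without LPS array 2 (-0.62) and with the Gapdh covariate (-0.54). Of 8 endothelial markers 3 fell and 1 rose, or 1 fell without LPS array 1 or without saline array 1, 2 or 4. Their list mean was 8.18 to 8.45 in LPS arrays and 8.47 to 8.94 in saline arrays, and their part was not tested. Of 18 coagulation genes 5 rose and 2 fell, or 4 fell without LPS array 4. Fgl2, a prothrombinase, rose by 3.30 ± 0.64, Plaur, the urokinase receptor, by 2.40 ± 0.53 and the protein C receptor Procr by 1.72 ± 0.29. Vwf, the platelet-binding factor of endothelium, had levels of 6.72, 5.28, 7.71 and 6.51 in knockout LPS hearts and 8.53, 8.05, 8.19 and 8.04 in knockout saline hearts and fell by 1.65 ± 0.51. That fall was not called without LPS array 2 (-1.22) or without saline array 1 (-1.54). F3, tissue factor, fell by 1.03 ± 0.24.

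Of 23 iron and haem genes 10 rose and 4 fell, and of 15 metallothioneins and zinc transporters 7 rose. Hp, haptoglobin, which binds free haemoglobin, had levels of 10.25, 9.01, 10.32 and 9.17 in knockout LPS hearts and 5.44, 5.53, 5.70 and 5.58 in knockout saline hearts and rose by 4.12 ± 0.26. Cp, the copper enzyme ceruloplasmin that oxidises iron, rose by 2.75 ± 0.11, and Slc39a14, an importer of zinc and iron, by 2.44 ± 0.30. Tfrc, the transferrin receptor, had levels of 8.75, 8.69, 8.25 and 8.47 in knockout LPS hearts and 9.59, 9.58, 9.93 and 10.58 in knockout saline hearts and fell by 1.38 ± 0.29. Mt2, a metallothionein that binds zinc, rose by 5.57 ± 0.32, the zinc importer gene Slc39a6 by 1.69 ± 0.25 and Mt1 by 2.90 ± 0.15. Only 1 of the 4 probe sets of Slc39a6 was called, and only 1 of the 3 of Tfrc. Fth1, the ferritin heavy chain, was not called (0.05 ± 0.11), but was called higher without LPS array 2 (0.20) and with the Gapdh covariate (0.12). In tryptophan and NAD metabolism 5 of 22 rose and 5 fell, or 3 fell without LPS array 3 or saline array 3 and 2 without saline array 2. Ido1, which starts the breakdown of tryptophan, had levels of 5.27, 5.77, 4.37 and 4.76 in knockout LPS hearts and 3.62, 3.61, 3.57 and 3.17 in knockout saline hearts and rose by 1.55 ± 0.43. Its call too was lost without LPS array 2 and saline array 1 together. The ADP-ribosyl transferase gene Parp14, known to be induced by interferon, rose by 3.10 ± 0.29, and Nmnat1, which makes NAD in the nucleus, fell by 1.09 ± 0.17.

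Among matrix proteases and their inhibitors 11 of 23 rose and 4 fell (median 0.43), or 2 fell without LPS array 2 or without saline array 2 or 4. Timp1, an inhibitor of matrix proteases, had levels of 10.23, 10.37, 10.06 and 9.39 in knockout LPS hearts and 5.48, 5.37, 5.58 and 5.13 in knockout saline hearts and rose by 4.62 ± 0.22. The proteoglycan-cutting proteases Adamts4 and Adamts1 rose by 4.22 ± 0.52 and 2.32 ± 0.48, and stromelysin, Mmp3, by 3.597 ± 0.37. Timp2 had levels of 8.97, 8.76, 8.93 and 9.35 in knockout LPS hearts and 10.47, 10.05, 10.20 and 10.40 in knockout saline hearts and fell by 1.28 ± 0.18, so these inhibitors moved in opposite directions with no overlap of groups in either. Lox, which cross-links collagen, had levels of 9.77, 9.69, 9.42 and 9.29 in knockout LPS hearts and 5.48, 5.26, 5.64 and 6.14 in knockout saline hearts and rose by 3.91 ± 0.27. Ogn, a small proteoglycan, had levels of 8.14, 6.30, 8.20 and 9.04 in knockout LPS hearts and 9.96, 10.70, 10.58 and 10.48 in knockout saline hearts and fell by 2.51 ± 0.38. Related proteoglycans and fibril components fell too, Fmod by 2.38 ± 0.13, Fbln5 by 2.17 ± 0.22 and Aspn by 2.10 ± 0.31. Of 30 such genes 15 fell and 5 rose (median -0.62), while Dcn, decorin, a marker of fibroblasts, was not called (-0.05 ± 0.09), but 1 of its 2 probe sets was called higher (0.69). The list mean of fibroblast markers was 8.84 to 9.81 in LPS arrays and 10.21 to 10.39 in saline arrays, with 3 of 7 falling, and its part in these falls was not tested.

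Of 42 collagen genes 10 fell and 2 rose. The 2 that rose were Col4a1 (1.43 ± 0.23) and Col4a2 (1.12 ± 0.12), the paired chains of basement membranes. Col6a3, of microfibrils, fell by 1.79 ± 0.27, and Col3a1, a main fibrillar chain, was not called (-0.23 ± 0.34). Ptx3, a soluble pattern receptor that stabilises hyaluronan matrix, had levels of 9.15, 9.21, 9.31 and 7.87 in knockout LPS hearts and 4.68, 4.60, 4.56 and 4.48 in knockout saline hearts and rose by 4.30 ± 0.69. Itih5, a hyaluronan-binding protein, had levels of 5.22, 4.72, 5.74 and 5.03 in knockout LPS hearts and 8.28, 7.99, 8.42 and 7.93 in knockout saline hearts and fell by 2.97 ± 0.25. Inhbb, a subunit of activin B, had levels of 9.93, 10.28, 9.54 and 8.41 in knockout LPS hearts and 4.57, 4.63, 4.67 and 5.10 in knockout saline hearts and rose by 4.80 ± 0.81. In Ptx3 and Inhbb LPS array 4 lay more than 1 log2 unit below the other LPS arrays, yet above every saline array. The activin-binding proteins Fstl3 and Fst rose by 1.44 ± 0.26 and 1.12 ± 0.17. Across TGF-beta, activin and BMP genes 7 of 32 rose and 8 fell.

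Of 34 genes for building ribosomes 27 rose and the other 7 were not called, with a median of 0.54, and 23 rose without LPS array 2. Rrp12, which takes part in the export of ribosomal subunits from the nucleus, had levels of 7.90, 8.21, 7.41 and 6.97 in knockout LPS hearts and 5.92, 5.74, 5.80 and 5.49 in knockout saline hearts and rose by 1.89 ± 0.25. Nolc1 and Gnl3, of the nucleolus, rose by 1.03 ± 0.20 and 1.20 ± 0.21. Of 19 cytosolic aminoacyl-tRNA synthetases 12 rose and 7 were not called (median 0.43). Wars, the tryptophan enzyme, known to be induced by interferon, had levels of 10.36, 10.70, 10.01 and 10.22 in knockout LPS hearts and 8.26, 7.85, 8.10 and 8.04 in knockout saline hearts and rose by 2.26 ± 0.20, and the next largest rise of the list was 0.69 ± 0.08 (Kars). Of the cytosolic ribosomal proteins 16 of 48 rose and 1 fell, with a median of 0.15. The 1 that fell was Rpl3l (-0.82 ± 0.11), the form of Rpl3 found in heart and skeletal muscle.

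Subunits of the constitutive proteasome rose for 23 of 31 (median 0.46), Psma5 by 1.10 ± 0.12. The catalytic subunit Psmb6, which an interferon-induced subunit replaces in the immunoproteasome, was not called (0.05 ± 0.07). Of the unfolded protein and ATF4 response 17 of 27 rose and 2 fell (median 0.58). Asns, asparagine synthetase, had levels of 7.29, 7.02, 7.06 and 6.49 in knockout LPS hearts and 5.62, 5.79, 5.53 and 5.42 in knockout saline hearts and rose by 1.37 ± 0.27. The ER proteins Manf and Sdf2l1 rose by 1.05 ± 0.12 and 1.18 ± 0.17, whereas Ddit3, the death-linked factor CHOP, fell by 0.68 ± 0.14. The muscle ubiquitin ligase gene Fbxo32 rose by 1.17 ± 0.26, and Trim63, the other ligase of muscle wasting, was not called (-0.13 ± 0.09). The mitochondrial chaperone gene Hspe1 fell by 0.74 ± 0.11, while the small heat shock protein Hspb1 rose by 1.06 ± 0.18.

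Of 77 genes for respiratory chain and ATP synthase subunits 46 fell and the other 31 were not called, with a median change of -0.26. Ndufa8, of complex I, had levels of 11.71, 11.27, 11.75 and 11.997 in knockout LPS hearts and 12.20, 12.37, 12.36 and 12.24 in knockout saline hearts and fell by 0.61 ± 0.12, and the groups did not overlap. Of 76 mitochondrial ribosomal proteins 40 fell and 3 rose (median -0.35), Mrpl34 by the largest amount (1.07 ± 0.21), and 1 rose without LPS array 1 or without saline array 3 or 4. In these 2 lists 43 and 31 genes fell without LPS array 2, and 58 and 46 with the Gapdh 3′ minus 5′ difference as a covariate. Genes of mitochondrial shape and turnover fell for 8 of 14, among them the fusion proteins Mfn1 (-0.69 ± 0.13) and Opa1 (-0.65 ± 0.11). The call of Opa1 was lost when its probe sets were averaged (-0.38). The 1 that rose was Bnip3 (0.74 ± 0.13), a receptor for the removal of mitochondria.

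**Figure D3:**
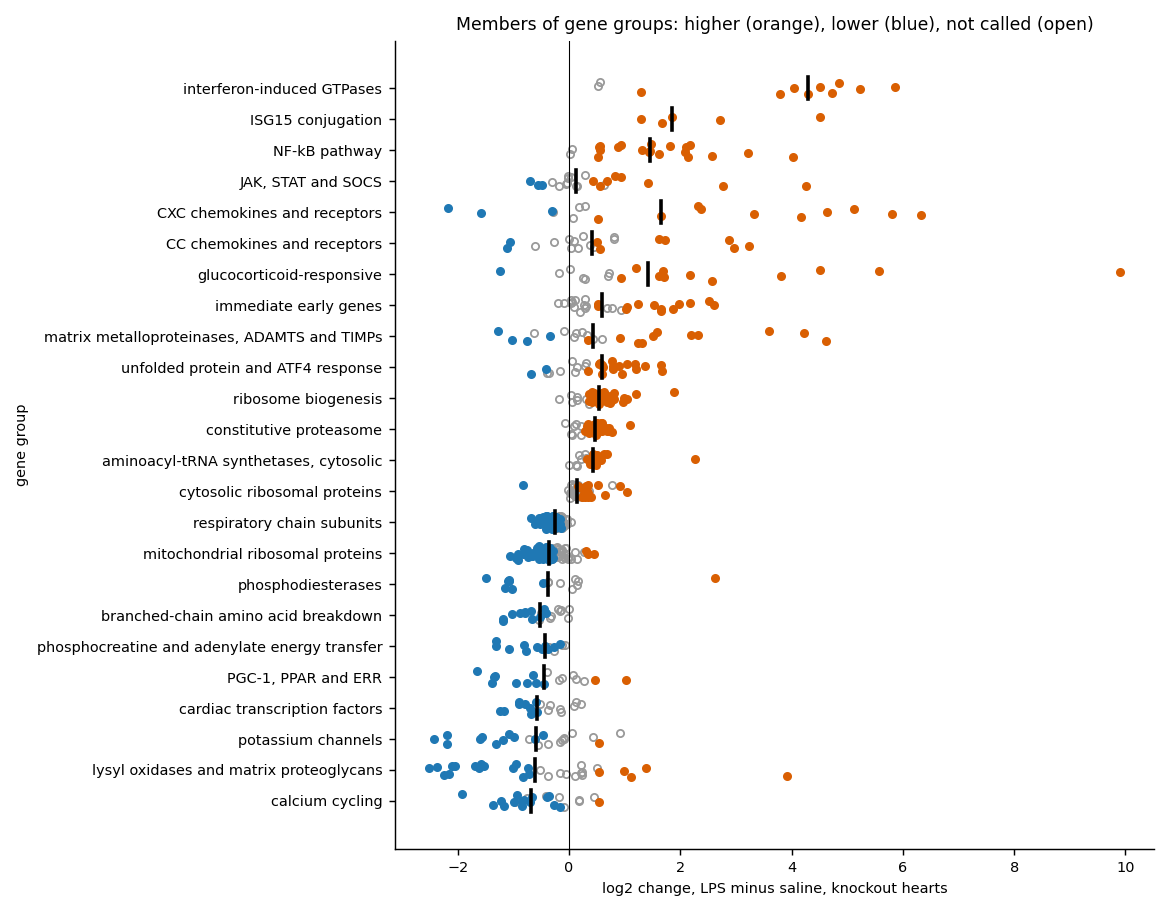
Log2 change in knockout hearts after LPS of each measured member of 24 gene groups, 1 point per gene, with called members filled in orange (higher) or blue (lower), members not called in open grey, and the group median as a black bar. NF-kB genes (median 1.45) lie mostly right of 0, and mitochondrial ribosomal proteins (median -0.35) mostly left.

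Of 20 genes that break down branched-chain amino acids, a fuel of muscle, 11 fell and 9 were not called (median -0.52). Dbt, a subunit of the rate-setting dehydrogenase, had levels of 7.78, 7.62, 7.41 and 7.75 in knockout LPS hearts and 8.63, 9.08, 8.68 and 8.92 in knockout saline hearts and fell by 1.19 ± 0.13. Ppm1k, the phosphatase that activates that enzyme, had levels of 8.80, 8.29, 9.37 and 9.79 in knockout LPS hearts and 9.97, 10.42, 10.34 and 10.31 in knockout saline hearts and fell by 1.19 ± 0.23. Bckdk, the kinase that inhibits it, was not called (-0.15 ± 0.12). Of the ketone genes Bdh1, the first enzyme of ketone use, fell by 1.32 ± 0.21 and Oxct1, the next, by 0.63 ± 0.10. Genes that pass energy on as phosphocreatine or between adenylates fell for 11 of 15. The adenylate kinase Ak1 had levels of 9.73, 9.40, 9.73 and 10.07 in knockout LPS hearts and 11.03, 11.03, 11.14 and 10.99 in knockout saline hearts and fell by 1.31 ± 0.23.

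Among the nuclear regulators of oxidative metabolism 9 of 17 fell and 2 rose. Esrrg, a receptor that drives genes of oxidative metabolism in heart, had levels of 6.68, 5.15, 6.79 and 7.39 in knockout LPS hearts and 7.76, 8.31, 8.27 and 8.27 in knockout saline hearts and fell by 1.65 ± 0.33. Rxrg, a partner of nuclear receptors, fell by 1.38 ± 0.29 and the coactivator Ppargc1b by 1.33 ± 0.21. Pprc1, a relative of these coactivators, rose by 1.02 ± 0.17. In fatty acid uptake and oxidation 5 of 24 fell and 4 rose (median -0.17). There were 3 falls without LPS array 2 (median -0.04), as many without saline array 2, 3 or 4, and 8 with the Gapdh covariate. Ucp3, a mitochondrial carrier raised by fatty acids, had levels of 8.29, 8.18, 8.08 and 8.34 in knockout LPS hearts and 5.86, 6.23, 5.995 and 6.90 in knockout saline hearts and rose by 1.97 ± 0.49. LPS array 2 held the lowest level of Esrrg, while the LPS levels of Ucp3 were within 1 log2 unit of each other. Lipid droplet genes rose for 9 of 21 and fell for 4. The falls numbered 2 without LPS array 1 or 2 or without saline array 3 or 4, 7 without LPS array 4 and 6 with the Gapdh covariate. Plin2, which coats lipid droplets, had levels of 11.65, 11.68, 11.34 and 11.47 in knockout LPS hearts and 9.51, 9.20, 9.23 and 9.41 in knockout saline hearts and rose by 2.20 ± 0.15. Pnpla2, the first lipase of triglyceride, rose by 1.17 ± 0.10. In glycolysis Pfkfb2, the cardiac enzyme that makes the activator of phosphofructokinase, had levels of 5.12, 5.74, 5.33 and 6.51 in knockout LPS hearts and 8.21, 8.27, 8.17 and 7.86 in knockout saline hearts and fell by 2.45 ± 0.45. Of that list 7 of 26 rose and 12 fell.

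Among the genes of excitation and contraction, potassium channels fell for 11 of 22 and rose for 1 (median -0.59). Kcnk3, a background channel, had levels of 7.30, 6.95, 7.52 and 8.41 in knockout LPS hearts and 10.01, 9.74, 10.06 and 10.07 in knockout saline hearts and fell by 2.43 ± 0.46. Kcnd2 and its subunit Kcnip2, which carry the transient outward current, fell by 1.59 ± 0.33 and 2.19 ± 0.25, and Kcnj3 and Kcnj5, which together form the acetylcholine-gated channel, by 2.20 ± 0.35 and 1.56 ± 0.38. Kcnj3 and Kcnj5 are known for atrial expression, and the list mean of atrial markers was 10.76 to 11.01 in LPS arrays and 11.76 to 11.96 in saline arrays. The part of atrial tissue was not tested. The ATP-sensitive channel's regulatory subunit Abcc9 fell by 1.31 ± 0.11. Calcium cycling genes fell for 15 of 24 and rose for 1 (median -0.69). Jph2, which holds the sarcoplasmic reticulum to the cell membrane, had levels of 8.96, 9.51, 8.65 and 9.12 in knockout LPS hearts and 10.59, 10.14, 10.48 and 10.53 in knockout saline hearts and fell by 1.37 ± 0.23. Pln, which restrains the calcium pump, had levels of 13.07, 11.69, 13.42 and 13.73 in knockout LPS hearts and 13.53, 13.97, 13.93 and 13.87 in knockout saline hearts and fell by 0.85 ± 0.29, and the pump itself, Atp2a2, by 0.17 ± 0.04. That small value comes from a probe set near the top of the scale, and 5 of the 6 probe sets of Atp2a2 were called lower, down to -0.835. The groups overlapped for Pln, with LPS array 2 far below the rest, and without it the change of Pln was -0.42. The fall of Pln was not called without LPS array 1 (-0.88) or without saline array 2, 3 or 4 (-0.80, -0.81 and -0.83). It was also not called when the 8 knockout arrays were fitted alone (adjusted p = 0.11). Fgf13, a partner of sodium channels, fell by 1.02 ± 0.18.

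Of 31 sarcomere and Z-disc genes 14 fell and 5 rose, or 3 rose without LPS array 1 or 3 or without saline array 1. Of the main contractile chains, Myh6 had a change of -0.11 ± 0.06 and Myl2 of -0.10 ± 0.04, neither of them called. The other of the 2 Myh6 probe sets changed by -0.97 without a call, and Myh6 was called lower when its probe sets were averaged (-0.54). The mean level of Myh6 was 14.32 ± 0.06 in knockout LPS hearts and 14.43 ± 0.05 in knockout saline hearts (SD, n = 4 each), near the top of the range, where such arrays are known to compress differences. Fhl2, a Z-disc adaptor, had levels of 10.37, 9.85, 10.86 and 11.79 in knockout LPS hearts and 12.51, 12.79, 12.74 and 12.80 in knockout saline hearts and fell by 1.995 ± 0.33, and Myh7b, a minor myosin, fell by 2.03 ± 0.23. Of 17 transcription factors of the cardiac lineage 9 fell and 8 were not called (median -0.57). Gata4 had levels of 7.41, 6.42, 7.07 and 7.39 in knockout LPS hearts and 7.99, 8.43, 8.46 and 8.38 in knockout saline hearts and fell by 1.24 ± 0.22, Tbx20 by 1.17 ± 0.22 and Mef2c by 0.90 ± 0.21.

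**Figure D4:**
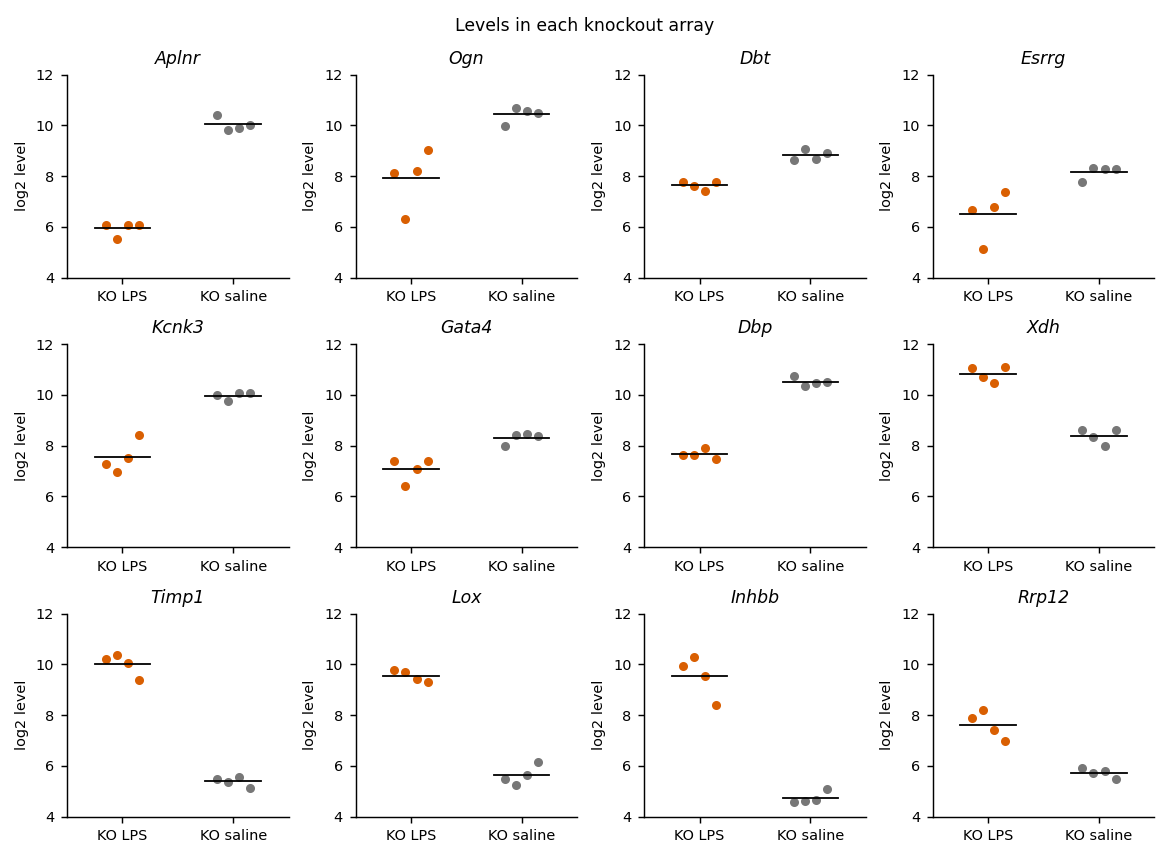
Log2 level in each knockout LPS (orange) and knockout saline (grey) array of 12 genes with different roles, with a bar at the group mean. The 2 groups do not overlap in any of the 12 panels, and the changes shown lie between -4.09 (Aplnr) and 4.80 (Inhbb).

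In insulin and IGF signalling 10 of 25 genes fell and 3 rose, or 5 rose without LPS array 4. Igf1, a growth factor for muscle, had levels of 5.33, 4.81, 5.73 and 4.56 in knockout LPS hearts and 7.24, 7.56, 7.43 and 7.66 in knockout saline hearts and fell by 2.37 ± 0.24, and its binding protein Igfbp5 fell by 1.98 ± 0.34. Cdkn1a, the cell cycle inhibitor p21, had levels of 10.97, 11.68, 10.49 and 10.83 in knockout LPS hearts and 6.96, 6.63, 6.45 and 7.38 in knockout saline hearts and rose by 4.14 ± 0.28. Its relative Cdkn1c had levels of 5.38, 5.03, 5.41 and 5.67 in knockout LPS hearts and 7.96, 7.43, 7.25 and 7.16 in knockout saline hearts and fell by 2.08 ± 0.22. The groups did not overlap for any of the 3 genes. Of 29 genes of the cell cycle and DNA replication only 2 were called, and the 2 falls were those of the cyclins Ccnd2 (-1.10 ± 0.21) and Ccne2 (-0.71 ± 0.12). The level of Ccne2 lay below the median level of all probe sets in every knockout array, saline arrays included. The circadian list fell for 8 of 18 and rose for 2. Arntl, of the positive arm of the clock, had levels of 7.04, 6.94, 6.76 and 7.22 in knockout LPS hearts and 5.004, 5.45, 5.04 and 5.64 in knockout saline hearts and rose by 1.71 ± 0.36. Dbp, a factor that the clock drives, had levels of 7.61, 7.64, 7.89 and 7.49 in knockout LPS hearts and 10.76, 10.36, 10.48 and 10.49 in knockout saline hearts and fell by 2.86 ± 0.44. Per3, of the negative arm, fell by 2.10 ± 0.36, and Nfil3, which opposes Dbp, rose by 1.39 ± 0.34. The labels give no hour of collection, and a shift in the clock and a difference in the hour cannot be told apart.

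The comparison with wild-type hearts asks whether the response differs without the receptor. LPS changed 3798 genes in wild-type hearts (20.9% of those tested), of which 3011 changed the same way in knockout hearts, 63.5% of the knockout calls and 79.3% of the wild-type calls, and 0 the opposite way. The difference of the 2 responses, tested as an interaction in limma, was called for 0 genes (0%), with 813 genes at an unadjusted p under 0.05 and a lowest adjusted p of 0.757. No gene is therefore shown to respond differently with and without A2AR. Counts that look unlike between genotypes have the same limit: branched-chain amino acid genes fell for 11 in knockout and 4 in wild-type hearts. Their medians were -0.52 in knockout and -0.23 in wild-type hearts. Ribosome biogenesis genes rose for 27 in knockout and 16 in wild-type hearts, with medians of 0.54 in knockout and 0.47 in wild-type hearts. Wild-type LPS hearts were uneven too: Il6 stood at 3.61 in array 4 and at 7.34, 9.13 and 9.02 in arrays 1 to 3. Without wild-type LPS array 4, 4902 genes were called in wild-type hearts, against 4744 in knockout hearts with every array. The interaction still called 0 genes.

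The 5 genes with the smallest interaction p, none called, were Cidec, Txndc11, Rbfox1, Nectin3 and Atp6v0d2. Rbfox1, a regulator of splicing in heart and brain, had levels of 7.16, 7.62, 7.53 and 7.55 in knockout LPS hearts and 8.85, 8.78, 8.61 and 8.89 in knockout saline hearts and fell by 1.32 ± 0.12 in knockout hearts, against a change of -0.53 ± 0.12 in wild-type hearts, a difference of -0.79 ± 0.16 (adjusted p = 0.757). Txndc11, a thioredoxin-domain protein of the ER, had levels of 7.50, 7.61, 7.30 and 7.15 in knockout LPS hearts and 6.45, 6.62, 6.97 and 6.46 in knockout saline hearts and rose by 0.76 ± 0.14 in knockout hearts, against -0.19 ± 0.14 in wild-type hearts, a difference of 0.95 ± 0.19 (adjusted p = 0.757). Nectin3, an adhesion protein, was not called in knockout hearts (0.14 ± 0.15, though 1 of its 6 probe sets was called lower, at -0.36) and fell in wild-type hearts (-0.86 ± 0.15). The knockout and wild-type changes of Nectin3 differed by 0.996. Rbfox1, Txndc11 and Nectin3 lie on chromosome 16, with differences in both directions and none of them called. The part of that position in their differences was not tested. The share of all tested genes on that chromosome was not counted. Cidec, a lipid droplet protein of fat, was not called in knockout hearts (-0.15 ± 0.13) and fell in wild-type hearts (-1.11 ± 0.13). Its levels in the knockout arrays, 3.52, 3.41, 3.62 and 3.28 in knockout LPS hearts and 3.67, 3.67, 3.71 and 3.40 in knockout saline hearts, all lie below the median level of all probe sets. Adipocyte markers, 4 genes with Cidec and Adipoq among them, had list means of 3.71 to 4.01 in knockout LPS and 4.67 to 5.25 in knockout saline arrays. In wild-type arrays these means were 3.91 to 4.61 after LPS and 5.54 to 5.97 after saline. The part of fat cells in the difference of Cidec was not tested. Atp6v0d2, a subunit of a proton pump, had changes of -0.32 ± 0.06 in knockout and 0.04 ± 0.06 in wild-type hearts. Its levels too lay below the median level of all probe sets in every array.

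**Figure D5:**
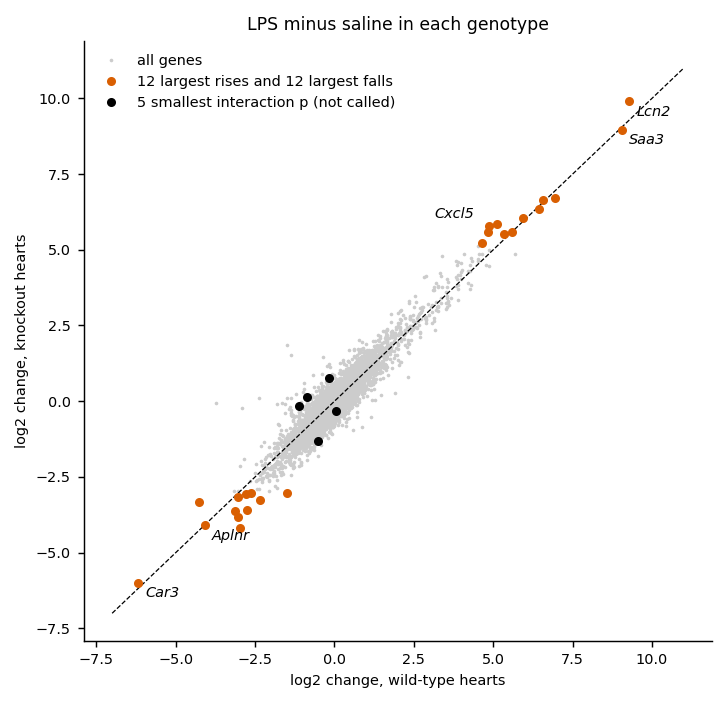
Log2 change after LPS of each of the 18193 genes in knockout hearts (vertical axis) and in wild-type hearts (horizontal axis), which share no array, with a dashed line of equal change. The 12 largest knockout rises and 12 largest falls are in orange and the 5 genes of smallest interaction p in black: Lcn2 stands at 9.90 and 9.28, and none of the black points was called in the interaction.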

How the data were processed

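Total RNA of ventricular myocardium was measured on Affymetrix arrays. The deposited log2 values were made by the authors with RMA, per the submitters' processing notes, a method of background correction, quantile normalization and probe summary whose version is not given in the sources used here. Quantile normalization gives every array the same distribution, so changes are relative to the other genes of an array.

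Of 45101 probe sets, 34945 carried 1 gene symbol, 64 controls were left out, 932 carried several symbols and 9160 none. Each of 18193 genes was represented by its probe set of highest mean. The 4 group means were estimated from all 16 arrays in limma 3.58.1 (R 4.3.3), with variances that followed intensity and 12 degrees of freedom. P-values are two-sided, with Benjamini-Hochberg adjustment over every gene. The members and gene lists were chosen with earlier results of these data known.

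Named genes were the 12 largest rises and 12 largest falls among called genes without overlap, in each list the 6 called members of largest change and the 3 not called of highest level, and the 5 of smallest interaction p; those shown were picked from these. Adora3, Atp2a2, Bckdk, Cd14, Col4a2, Cxcl12, Cxcr4, Ddit3, Myd88, Nos2, Nr3c1, Tfrc, Timp2 and Trim63 fall outside that rule and were chosen after their values were seen. Promoters are from RefSeq on GRCm38.p6. Precision is limited by the number of arrays.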

Additional observations from a re-analysis of the deposited data

Results flagged for a closer look

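Among the genes named above, 25 of 402 sets of 4 knockout arrays had 1 array that lay apart from the other 3 by Dixon's criterion, where chance alone gives about 1 in 20 sets. The array that lay apart was knockout saline array 1 in 8 sets, knockout LPS array 2 in 6, knockout LPS array 4 in 5, knockout saline array 4 in 3, knockout saline array 2 in 2 and knockout LPS array 3 in 1. Saline array 1 and LPS array 2 also had the highest Gapdh 3′ minus 5′ differences of their groups, 0.90 in LPS array 2 and 0.52 in saline array 1, and the part of RNA integrity in these levels was not tested.

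In LPS array 2, levels were below those of the other LPS arrays for 6 of these genes: Aplnr at 5.54, Fth1 at 13.22, Gucy1b1 at 5.57, Il18bp at 8.27, Nr3c1 at 8.29 and Tlr4 at 5.58. In LPS array 4, Cp stood at 11.22, Pde4b at 9.08 and Ptx3 at 7.87, nearer to saline than the other LPS arrays, and so did Pde4d at 8.42, while Psmb6 stood at 10.65. In LPS array 3, Il1b stood at 5.58, above the other LPS arrays. In saline array 1, Agtr1a (8.04), Esrrg (7.76), F3 (6.58), Manf (8.60) and Mrpl34 (8.26) were below the other saline arrays. In the same array Cxcl12 (11.05), Jam2 (9.65) and Mef2c (10.43) were above them. Saline array 2 held the lowest Atp2a2 (14.22) and the highest Nos2 (4.59) of its group. Saline array 4 held the lowest Cidec (3.40), Ido1 (3.17) and Pgf (6.11) of its group.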

How the results depend on the processing

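For the calls in knockout hearts 17 alternative settings were used. Of the 182 called genes named in the report, 176 kept their call and direction in every setting that tested them. Named genes of low level, such as Ccne2 and Atp6v0d2, were not tested in the setting limited to genes above the median mean level. The other 6 (Ido1, Nos2, Opa1, Pln, Slc29a1 and Vwf) lost their call under 1 or more, and none reversed. When every probe set was tested, only 1 of several was called for Ak1, Arntl, Atp6v0d2, Fbln5, Fgf13, Jam3, Kcnj5, Lifr and Marco. The same held for Mrpl34, Opa1, Ptgs2, Ptx3, Slc39a6, Stat5b, Tfrc and Txndc11. Of the 19 named genes not called, 8 (Cdh5, Fth1, Il1b, Myh6, Myl2, Nppa, Nppb and Tlr4) gained a call under 1 or more. The number of called members stayed within 1.5 times in every setting for 42 of the 60 gene lists described, and 12 lists moved further when only genes above the median mean level were tested, which tests fewer members. In 14 lists the count in 1 direction moved by over 1.5 times, and by 2 genes or more, without 1 array. The count of called genes was 4744 in knockout hearts and between 3871 and 5083 with 1 array left out, against 3798 in wild-type hearts and between 3006 and 4902. It was 7611 when every single-gene probe set was tested, which tests more features, and 2958 at an adjusted p under 0.01. With replicate number as a block it was 4487, and no named gene lost its call. Deviations of knockout arrays with the same number correlated at -0.07, -0.27, 0.16 and 0.07. So few values cannot show whether the numbers pair the hearts, and the labels do not say. The interaction called 0 genes in limma in every setting, with 624 to 1335 genes at an unadjusted p under 0.05 and a lowest adjusted p of 0.241. Without LPS array 2 and saline array 1, an alternative chosen after seeing the data like the Gapdh covariate, 3873 genes were called. Levels under the median of all probe sets limit the size of changes such as those of Il6, Cxcl5 and Cidec, and 4 arrays a group limit what the interaction can detect.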
